A study of Mus musculus with 9 samples.

Results

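The endoplasmic reticulum (ER) folds secreted and membrane proteins, and cells answer a shortage of folding capacity or of amino acids with linked gene programmes that are described here for 37 genes in embryonic mouse brain. Total RNA from whole brains at embryonic day 14 had been sequenced after removal of ribosomal RNA, in 3 groups of 3 libraries: brains exposed to valproic acid, a drug that inhibits histone deacetylases, brains exposed to poly(I:C), a synthetic double-stranded RNA that mimics a viral infection, and saline controls from mice described as wildtype. The labels used here give no strain, dose, day or route of exposure, litter or sex, and do not say that replicates came from separate litters or embryos, so p-values measure the spread between these libraries, part of which may be technical. The genes were chosen by name, with earlier results of these data known, as the Ensembl rows that carry 37 symbols, out of 56748 genes in the count table. They fall into the ATF4 arm (18 genes), the ER stress sensors with the transcription factor Xbp1 (4 genes) and the ER chaperones with their helpers (15 genes). Of these, 36 passed the filter on low counts that 17171 genes passed. The exception was Trib3, a pseudokinase that ATF4 induces, with 7, 6 and 6 reads in the valproic acid libraries, 6, 13 and 2 in the poly(I:C) libraries and 12, 4 and 10 in the controls, and it was not tested. Ddit3 has a second Ensembl ID, which held 0 reads in all 9 libraries.

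As background, unfolded protein in the ER lumen activates 3 membrane sensors, PERK (gene Eif2ak3), IRE1 (Ern1) and ATF6 (Atf6). PERK, like other kinases that sense missing amino acids or double-stranded RNA, phosphorylates the translation factor eIF2, which lowers protein synthesis and favours translation of ATF4, an activator of genes for amino acid synthesis and uptake. IRE1 splices the Xbp1 messenger RNA, and spliced XBP1 and cleaved ATF6 induce the chaperones, so the chaperone genes read out the ER branch and the ATF4 targets the branch shared with amino acid stress. In developing brain both sets are also expressed without stress, since progenitors and growing neurons secrete, export and synthesise much protein.

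The best known control sequence of the chaperone genes is the ER stress element, CCAAT and CCACG separated by 9 bases, to which ATF6 and the factor NF-Y bind. It was looked for on both strands of the 250 bases before the start of each gene in the RefSeq promoters of build GRCm38.p6, which held 33 of the 37 genes and none for Atf6, Hyou1, Manf and Slc7a5. The element was found in 7 of 13 chaperone genes (53.8%), in 0 of 17 ATF4 arm genes and 0 of 3 sensor genes, against 35 of all 27025 genes with a promoter (0.13%). The matches are shown because they occurred among the chaperones and in no ATF4 arm promoter searched, and each is written 5′ to 3′ on the strand that carries the element, with CCAAT and CCACG in capitals:
Hspa5, chromosome 2: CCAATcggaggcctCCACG
Calr, chromosome 8: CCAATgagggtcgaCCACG
Hsp90b1, chromosome 10: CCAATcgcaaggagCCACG
Hsp90b1, chromosome 10: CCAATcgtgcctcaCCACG
Canx, chromosome 11: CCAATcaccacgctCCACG
Pdia6, chromosome 12: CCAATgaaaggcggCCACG
Dnajc3, chromosome 14: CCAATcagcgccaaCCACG
Creld2, chromosome 15: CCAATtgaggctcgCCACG
Hsp90b1 carried 2 matches, on opposite strands, and Hspa5 1 match that ended 47 bases before the start. The core of the site bound by C/EBP and ATF factors, TGATGNAA, was found in 4 of 17 ATF4 arm genes (23.5%; Chac1, Slc7a11 with 2 matches, Asns and Pycr1) and in 1 of 13 chaperone genes (Herpud1), against 3.91% of all genes. The core of the unfolded protein response element, TGACGTGG, was found in 0 of the 33 genes, against 0.603% of all genes. A match is a description of the letters, not of binding. The windows of Hspa5, which encodes the main ER chaperone BiP, and of Asns, which encodes asparagine synthetase, show both kinds of promoter, with the match in capitals:
Hspa5, chr2:34771840-34772089, plus strand: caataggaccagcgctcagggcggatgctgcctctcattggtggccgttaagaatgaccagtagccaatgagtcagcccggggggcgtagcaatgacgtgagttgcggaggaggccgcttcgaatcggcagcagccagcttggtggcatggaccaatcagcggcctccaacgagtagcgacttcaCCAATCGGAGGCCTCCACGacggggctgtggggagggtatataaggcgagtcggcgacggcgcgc
Asns, chr6:7693210-7693459, minus strand: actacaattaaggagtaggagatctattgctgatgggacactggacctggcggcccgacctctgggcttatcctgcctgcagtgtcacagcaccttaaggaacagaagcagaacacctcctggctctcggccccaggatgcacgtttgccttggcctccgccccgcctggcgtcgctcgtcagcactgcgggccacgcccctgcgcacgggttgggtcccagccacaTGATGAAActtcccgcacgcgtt

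Levels are given as CPM, the counts of a gene per 1000000 counted reads after scaling for library composition, and a gene was called changed where its p-value from edgeR's quasi-likelihood test, adjusted by Benjamini-Hochberg over all 17171 genes, was under 0.05. Libraries held 15399974 to 19883131 counted reads, and the 37 genes took 0.367% to 0.399% of them. Markers of radial glia, intermediate progenitors and neurons were present in all 9 libraries, while Myod1, Myog, Krt5 and Krt14, which mark muscle and skin, were at or below 0.175 CPM in all of them. Of the other 3 genes of that muscle, cartilage and skin list, the cartilage gene Col2a1 was at 62.99 to 77.9 CPM, the muscle gene Acta1 at 0.933 to 2.005 CPM and Acan at 0.131 to 0.398 CPM. Xist, which is expressed from an inactive X chromosome, was at 979 to 1054 CPM in all 3 valproic acid libraries and poly(I:C) replicate 3 and at most 0.236 CPM in the others, whereas Y-linked genes summed to 196 to 201 CPM in poly(I:C) and control replicates 1 and 2 and to 0 in the others. Control replicate 3 had neither signal. Valproic acid and the sex-linked signals therefore cannot be told apart in these libraries. In whole brains, fewer cells of a type and less RNA per cell also cannot be told apart.

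After valproic acid, 3 of the 36 genes rose and 0 fell: the mitochondrial one-carbon enzyme gene Shmt2 and the chaperone genes Pdia4 and Hspa5, each by under 1.2-fold. The share of all genes called in that comparison was 6.35% (3.57% higher and 2.78% lower), so 3 of 36 is near the background. After poly(I:C), 0 of the 36 genes were called, against 0.536% of all genes (0.262% higher and 0.274% lower), and the smallest adjusted p was 0.204, for Hspa5; DESeq2 also called 0. Between valproic acid and poly(I:C), Atf4 was called (higher after valproic acid), against 2.59% of all genes (1.42% higher and 1.18% lower). At an unadjusted p under 0.05, 14 of 36 genes were higher and 0 lower after valproic acid, against 11.2% and 10.9% of all genes. The same counts were 11 and 0 of 36 after poly(I:C), against 6.21% and 5.82% of all genes, and 4 and 1 of 36 between the exposures, against 8.21% and 8.45%. All 3 valproic acid libraries lay above all 3 controls for 13 of 36 genes and below them for 1, against 12.6% and 13% of all genes. For poly(I:C) against control these were 11 and 1 of 36, against 9.61% and 8.83%, and between the exposures 2 and 1 of 36, against 10.5% and 11.4%. At the unadjusted level the 36 genes thus had a larger share above control than all genes had in both exposures, and a smaller share below. Fold changes above 0 were seen for 29 of 36 genes after valproic acid (49.1% of all genes), for 27 of 36 after poly(I:C) (48.9% of all genes) and for 22 of 36 between the exposures (50% of all genes). The median log2 fold change over the 36 genes was 0.09 after valproic acid, 0.07 after poly(I:C) and 0.01 between the exposures, beside 0.00 over all genes in each. Both exposures were set against the same 3 controls, so their fold changes are not independent. The genes were chosen with earlier results of these data known, so these counts carry no test.

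**Figure D1:**
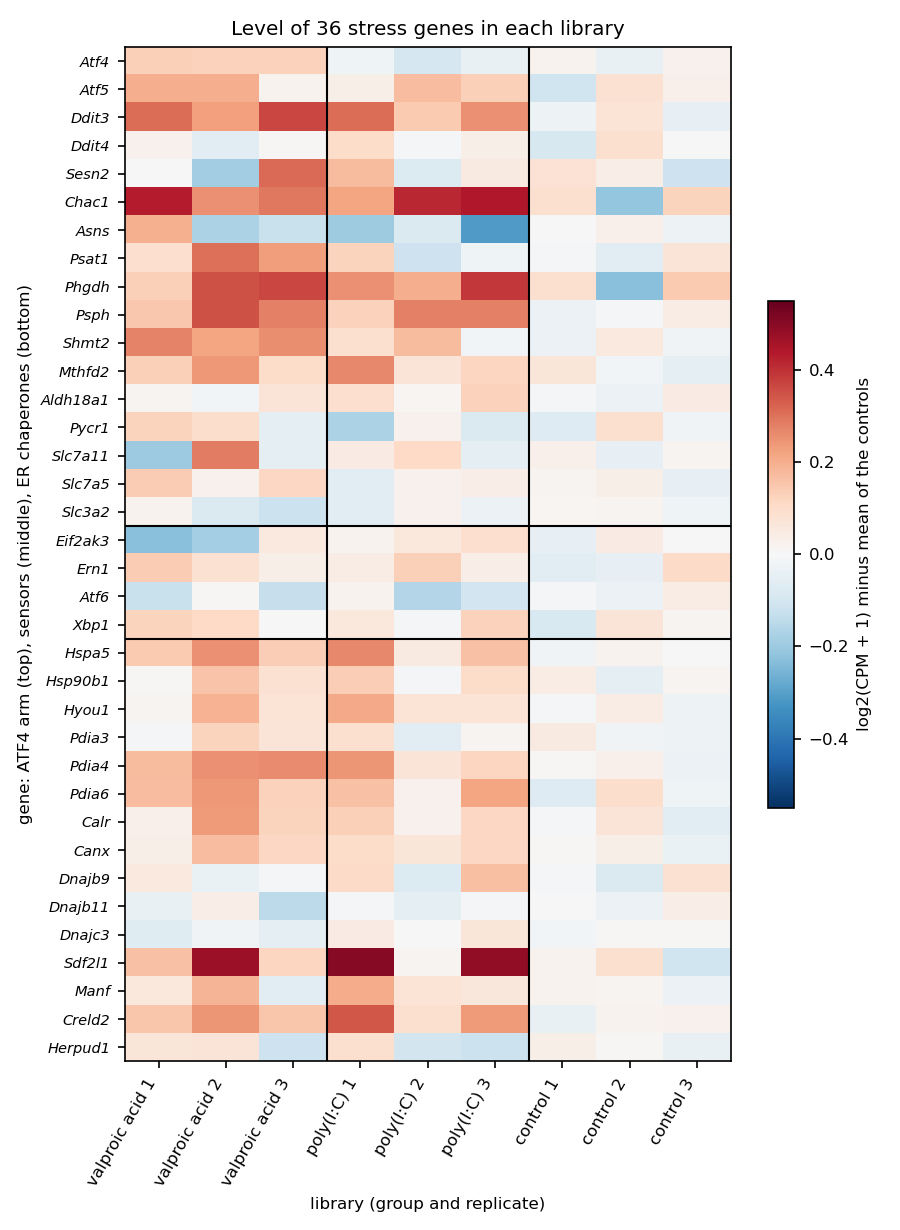
Level of the 36 tested genes in each library, as log2(CPM + 1) minus the mean of the 3 controls (colour), with the valproic acid libraries left, poly(I:C) in the middle and controls right. Reds outnumber blues in both exposed groups, and the chaperone rows are redder in valproic acid replicate 2 and poly(I:C) replicates 1 and 3 than in poly(I:C) replicate 2.

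Of the 3 transcription factors of the ATF4 arm, 1 was called, Atf4, in the comparison of the exposures, where 2.59% of all genes were called. Atf4, the factor translated when eIF2 is phosphorylated, was at 121, 121 and 121 CPM in the valproic acid libraries, 109, 104 and 108 CPM in the poly(I:C) libraries and 112, 108 and 113 CPM in the controls. The valproic acid libraries lay above all the others, and poly(I:C) overlapped the controls. Atf4 RNA was 1.14-fold higher after valproic acid than after poly(I:C) (log2 fold change 0.18 ± 0.0400 (SE), adjusted p = 0.0289 by edgeR). Against control it did not pass (log2 fold change 0.13 ± 0.0399 (SE), adjusted p = 0.0697 by edgeR), nor did poly(I:C) against control (log2 fold change -0.05). The call between the exposures was lost without any 1 of the 6 libraries (adjusted p up to 0.141 by edgeR, without poly(I:C) replicate 2). Much of the control of ATF4 is on its translation, which RNA levels do not show. Ddit3, which encodes the factor CHOP of prolonged stress, was at 13.5, 12.7 and 14.1 CPM in the valproic acid libraries, 13.5, 11.96 and 12.9 CPM in the poly(I:C) libraries and 10.5, 11.3 and 10.3 CPM in the controls. Every exposed library, of either kind, lay above every control, but neither comparison passed (adjusted p = 0.0626 for valproic acid, log2 fold change 0.32; adjusted p = 0.299 for poly(I:C), log2 fold change 0.26, edgeR). Atf5, a related factor, had overlapping groups and log2 fold changes of 0.14 and 0.11 after valproic acid and poly(I:C).

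Of the stress effectors, 0 of the 3 tested were called in any comparison. Chac1, which encodes a glutathione-degrading enzyme and is a sensitive ATF4 target, was at 3.56, 3.03 and 3.14 CPM in the valproic acid libraries, 2.92, 3.51 and 3.59 CPM in the poly(I:C) libraries and 2.59, 1.92 and 2.68 CPM in the controls. Both exposed groups lay above the controls, by log2 fold changes of 0.43 and 0.47 for valproic acid and poly(I:C), the highest among the 36 genes in either comparison. At 34 to 64 reads per library the intervals were wide (0.00 to 0.86 and 0.05 to 0.90), and neither passed (adjusted p = 0.223 and 0.349, edgeR). Ddit4, an inhibitor of the growth kinase mTORC1 that hypoxia also induces, was at 146, 137 and 144 CPM in the valproic acid libraries, 154, 142 and 147 CPM in the poly(I:C) libraries and 135, 152 and 143 CPM in the controls. Its 3 groups overlapped throughout, with a 95% interval of -0.12 to 0.09 for the log2 fold change after valproic acid. Sesn2, which encodes a leucine sensor that acts on mTORC1, had log2 fold changes of 0.06 and 0.06 after valproic acid and poly(I:C), with overlapping groups.

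**Figure D2:**
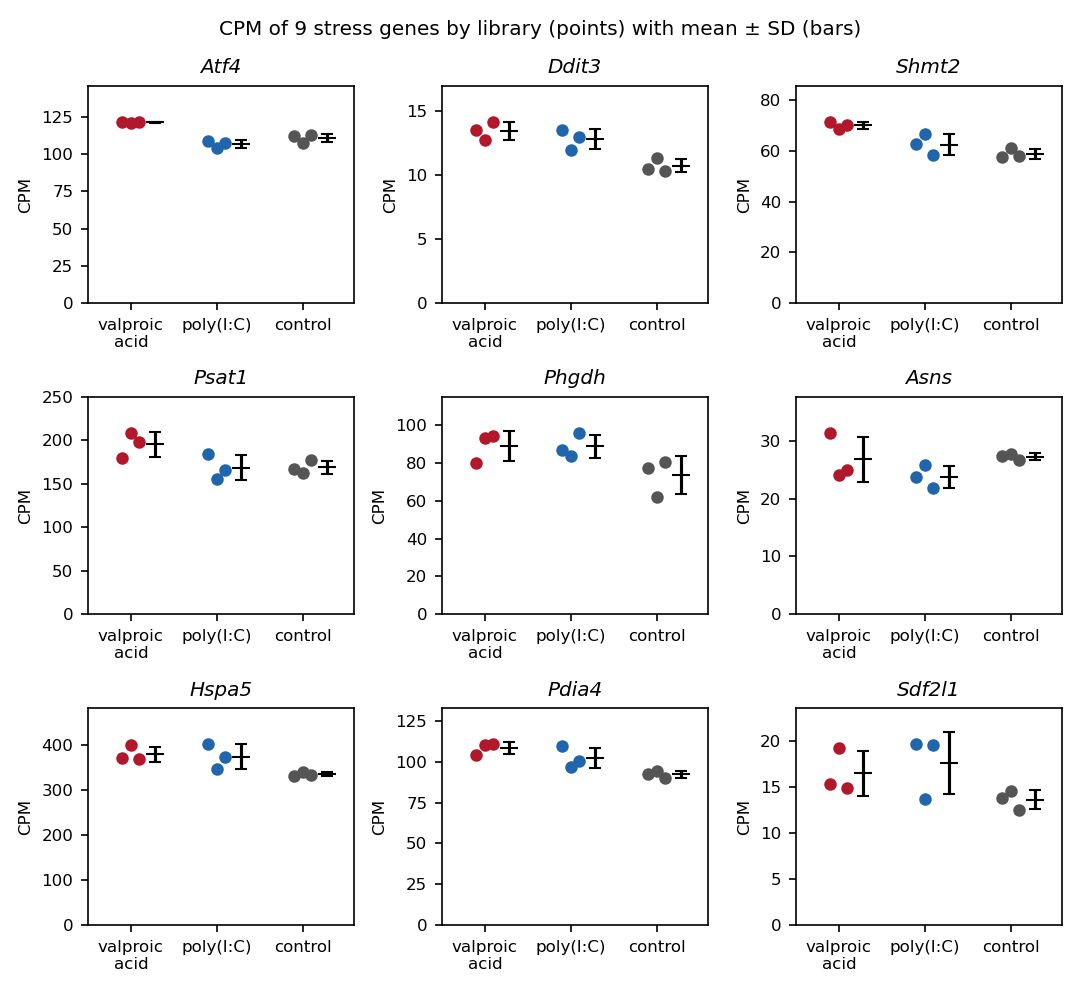
CPM of 9 of the genes in each library (points) with the mean and SD of the 3 libraries of a group (bars), from 0, with valproic acid left, poly(I:C) in the middle and control right. Shmt2 sits above the controls in all 3 valproic acid libraries. Ddit3, Hspa5 and Pdia4 do so in all 6 exposed libraries, and Asns does so in neither exposed group.

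Of the 8 enzymes of amino acid and one-carbon metabolism, 1 rose after valproic acid and 0 were called after poly(I:C). The shares of all genes were 3.57% called higher after valproic acid and 0.536% called after poly(I:C). Shmt2, which moves a carbon unit from serine to folate in mitochondria, was at 71.4, 68.6 and 70.4 CPM in the valproic acid libraries, 62.7, 66.5 and 58.3 CPM in the poly(I:C) libraries and 57.5, 61.1 and 58.1 CPM in the controls. It was 1.19-fold higher after valproic acid than in control (log2 fold change 0.25 ± 0.0545 (SE), adjusted p = 0.0151 by edgeR), with no overlap, and did not pass after poly(I:C) (log2 fold change 0.09, adjusted p = 0.576, edgeR). Its call was lost without control replicate 1 (adjusted p = 0.0652, edgeR) or control replicate 3 (adjusted p = 0.0539, edgeR). The 3 enzymes that make serine, chosen for description after their values were seen, had fold changes above 0 after valproic acid but did not pass by edgeR. DESeq2 called Phgdh and Psat1 after valproic acid, as did edgeR with no filter on low counts or without valproic acid replicate 1. Phgdh, the first of them, was at 80.0, 93.2 and 94.4 CPM in the valproic acid libraries, 87.0, 83.9 and 95.8 CPM in the poly(I:C) libraries and 77.6, 62.1 and 80.8 CPM in the controls. The lowest valproic acid library lay just below the highest control, all 3 poly(I:C) libraries lay above the controls, and control replicate 2 was lower than the other two controls. Its log2 fold change was 0.28 after valproic acid (adjusted p = 0.0761, edgeR) and 0.27 after poly(I:C) (adjusted p = 0.219, edgeR). Psat1, the second, was at 180.3, 208 and 198 CPM in the valproic acid libraries, 184, 156 and 166 CPM in the poly(I:C) libraries and 167, 162 and 177 CPM in the controls, so that only valproic acid stood above the controls, with a log2 fold change of 0.21 (adjusted p = 0.0554, edgeR); poly(I:C) overlapped the controls. Psph, the last, was above control in all 6 exposed libraries, with log2 fold changes of 0.28 after valproic acid and 0.24 after poly(I:C) and adjusted p of 0.0768 and 0.271 by edgeR.

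Asns, which makes asparagine and is a standard readout of amino acid shortage, was not higher on average in either exposed group. It was at 31.4, 24.2 and 25.0 CPM in the valproic acid libraries, 23.8, 25.8 and 21.9 CPM in the poly(I:C) libraries and 27.4, 27.9 and 26.8 CPM in the controls. Valproic acid replicate 1 lay above the controls and replicates 2 and 3 below them, and all 3 poly(I:C) libraries lay below the controls. The log2 fold change was -0.02 after valproic acid (95% interval -0.23 to 0.18) and -0.20 after poly(I:C) (95% interval -0.40 to 0.01; adjusted p = 0.438, edgeR). Mthfd2, the mitochondrial folate enzyme after Shmt2, had log2 fold changes of 0.17 and 0.16 after valproic acid and poly(I:C), with adjusted p of 0.252 and 0.464 by edgeR. The proline synthesis genes Aldh18a1 and Pycr1 had overlapping groups after valproic acid, with log2 fold changes of 0.02 and 0.06. Beside these enzymes, the summed CPM of the 7 radial glia markers, of which 2 rose after valproic acid, was 1975 to 2051 in valproic acid libraries, 1864 to 1933 in poly(I:C) libraries and 1830 to 1864 in controls. That of the 3 intermediate progenitor markers (Eomes, Neurog2 and Btg2, all 3 higher after valproic acid) was 456 to 496 in valproic acid libraries, 372 to 396 in poly(I:C) libraries and 336 to 359 in controls. The shares of all genes called higher were 3.57% after valproic acid and 0.262% after poly(I:C). Neurog2 was also called after poly(I:C), 1.22-fold above control (adjusted p = 0.00614, edgeR). That call held without any 1 of the 6 libraries but not without control replicate 3 and poly(I:C) replicate 3 together. The part of these markers in the enzymes' values was not tested.

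The amino acid transporters were close to control. Slc7a5, the light chain of the large neutral amino acid carrier, was at 174, 161 and 171 CPM in the valproic acid libraries, 152, 161 and 163 CPM in the poly(I:C) libraries and 159.9, 162 and 153 CPM in the controls, with overlapping groups and a log2 fold change of 0.09 after valproic acid (adjusted p = 0.219, edgeR). Its heavy chain partner Slc3a2 had -0.06 and the cystine carrier Slc7a11 0.03 in the same comparison, and after poly(I:C) the 3 transporters lay between -0.02 and 0.04.

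The sensors gave no call in any comparison. Eif2ak3, which encodes PERK, was at 32.3, 33.4 and 39.5 CPM in the valproic acid libraries, 38.6, 39.6 and 40.6 CPM in the poly(I:C) libraries and 36.8, 39.3 and 38.1 CPM in the controls, so the groups overlapped; its log2 fold change was -0.12 after valproic acid (adjusted p = 0.348, edgeR). Xbp1 was at 63.7, 63.1 and 58.4 CPM in the valproic acid libraries, 60.8, 58.0 and 63.8 CPM in the poly(I:C) libraries and 55.1, 61.5 and 59.0 CPM in the controls, with a 95% interval of -0.05 to 0.20 for the log2 fold change after valproic acid. These are counts of whole genes, so spliced and unspliced Xbp1 were not separated. Ern1 and Atf6 had log2 fold changes of 0.09 and -0.08 after valproic acid and 0.07 and -0.08 after poly(I:C).

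The general ER chaperones held the most RNA. Per kilobase of exon, on the CPM scale, Calr was highest in controls at 174 ± 8.11 (SD, n = 3), then Pdia3 at 90.7 ± 2.67, with Ddit4 at 81.8 ± 4.91 and Hspa5 at 79.3 ± 1.11, which are within their spread of each other. At the low end of the 36 tested genes were Slc7a11 at 1.63 ± 0.0452 and Chac1 at 1.46 ± 0.257. Hspa5 was at 370.5, 399 and 369 CPM in the valproic acid libraries, 402, 347 and 374 CPM in the poly(I:C) libraries and 331, 340.3 and 335 CPM in the controls. All 3 valproic acid and all 3 poly(I:C) libraries lay above all 3 controls. It was 1.13-fold higher after valproic acid (log2 fold change 0.18 ± 0.0492 (SE), adjusted p = 0.0432 by edgeR), while after poly(I:C) it had a log2 fold change of 0.16 and did not pass (adjusted p = 0.204, edgeR). Set directly against each other, the exposures differed in Hspa5 by 0.02 on the log2 scale (95% interval -0.09 to 0.12). The valproic acid call was lost without any 1 of the 6 libraries, with adjusted p up to 0.134 by edgeR. Hsp90b1, the ER Hsp90, and Hyou1, which exchanges nucleotide on BiP, had log2 fold changes of 0.08 and 0.10 after valproic acid and 0.08 and 0.12 after poly(I:C).

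Among the disulfide isomerases, which form and reshuffle disulfide bonds in the ER, Pdia4 was at 104, 110.2 and 111 CPM in the valproic acid libraries, 109.6, 97.2 and 100.5 CPM in the poly(I:C) libraries and 92.7, 94.3 and 90.2 CPM in the controls. Every exposed library lay above every control. The 1.17-fold rise after valproic acid passed (log2 fold change 0.23 ± 0.0503 (SE), adjusted p = 0.0158 by edgeR) and was lost without control replicate 3 (adjusted p = 0.0587, edgeR) or valproic acid replicate 3 (adjusted p = 0.0532, edgeR). After poly(I:C) its log2 fold change was 0.15 (adjusted p = 0.241, edgeR). Pdia6 had log2 fold changes of 0.18 and 0.14 after valproic acid and poly(I:C) (adjusted p = 0.0614 and 0.319, edgeR), and Pdia3, the isomerase that works with the lectin chaperones, 0.06 and 0.01. DESeq2 called Pdia6 after valproic acid, as did edgeR with no filter on low counts or without control replicate 2.

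Of the lectin chaperones, which hold glycoproteins until they fold, Canx (calnexin) was at 293, 322 and 310.4 CPM in the valproic acid libraries, 307, 299.7 and 309.8 CPM in the poly(I:C) libraries and 287, 293 and 279 CPM in the controls. The lowest valproic acid library and the highest control both had 293 CPM, and the log2 fold change was 0.11 (adjusted p = 0.127, edgeR). Calr (calreticulin) had 0.13 after valproic acid and 0.09 after poly(I:C). After valproic acid Calr was called only in the edgeR fit with no filter on low counts. Of the J-domain cochaperones, Dnajc3, an inhibitor of PERK, was at 39.9, 41.3 and 40.3 CPM in the valproic acid libraries, 43.2, 41.9 and 43.9 CPM in the poly(I:C) libraries and 41.4, 42.1 and 42.1 CPM in the controls, with valproic acid just below the controls, at a log2 fold change of -0.05 (adjusted p = 0.637, edgeR). Dnajb9, which restrains IRE1, and Dnajb11 had log2 fold changes of 0.00 and -0.05 after valproic acid. The values were 0.07 for Dnajb9, -0.02 for Dnajb11 and 0.04 for Dnajc3 after poly(I:C).

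Creld2, a secreted ER stress protein, was at 29.6, 31.7 and 29.7 CPM in the valproic acid libraries, 33.9, 28.3 and 31.5 CPM in the poly(I:C) libraries and 25.8, 26.9 and 27.0 CPM in the controls. All 6 exposed libraries lay above the controls, at log2 fold changes of 0.19 after valproic acid (adjusted p = 0.146, edgeR) and 0.23 after poly(I:C) (adjusted p = 0.218, edgeR). Sdf2l1, a BiP partner described after its values were seen, was at 15.3, 19.2 and 14.8 CPM in the valproic acid libraries, 19.6, 13.7 and 19.5 CPM in the poly(I:C) libraries and 13.8, 14.5 and 12.5 CPM in the controls, so that poly(I:C) replicate 2 lay among the controls and the other 2 well above them. Its log2 fold change was 0.28 after valproic acid and 0.37 after poly(I:C), and neither passed (adjusted p = 0.261 and 0.278, edgeR). Manf, a secreted trophic factor kept in the ER by BiP, and Herpud1, a part of the ER degradation machinery, had log2 fold changes of 0.07 and 0.01 after valproic acid and 0.12 and -0.04 after poly(I:C).

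**Figure D3:**
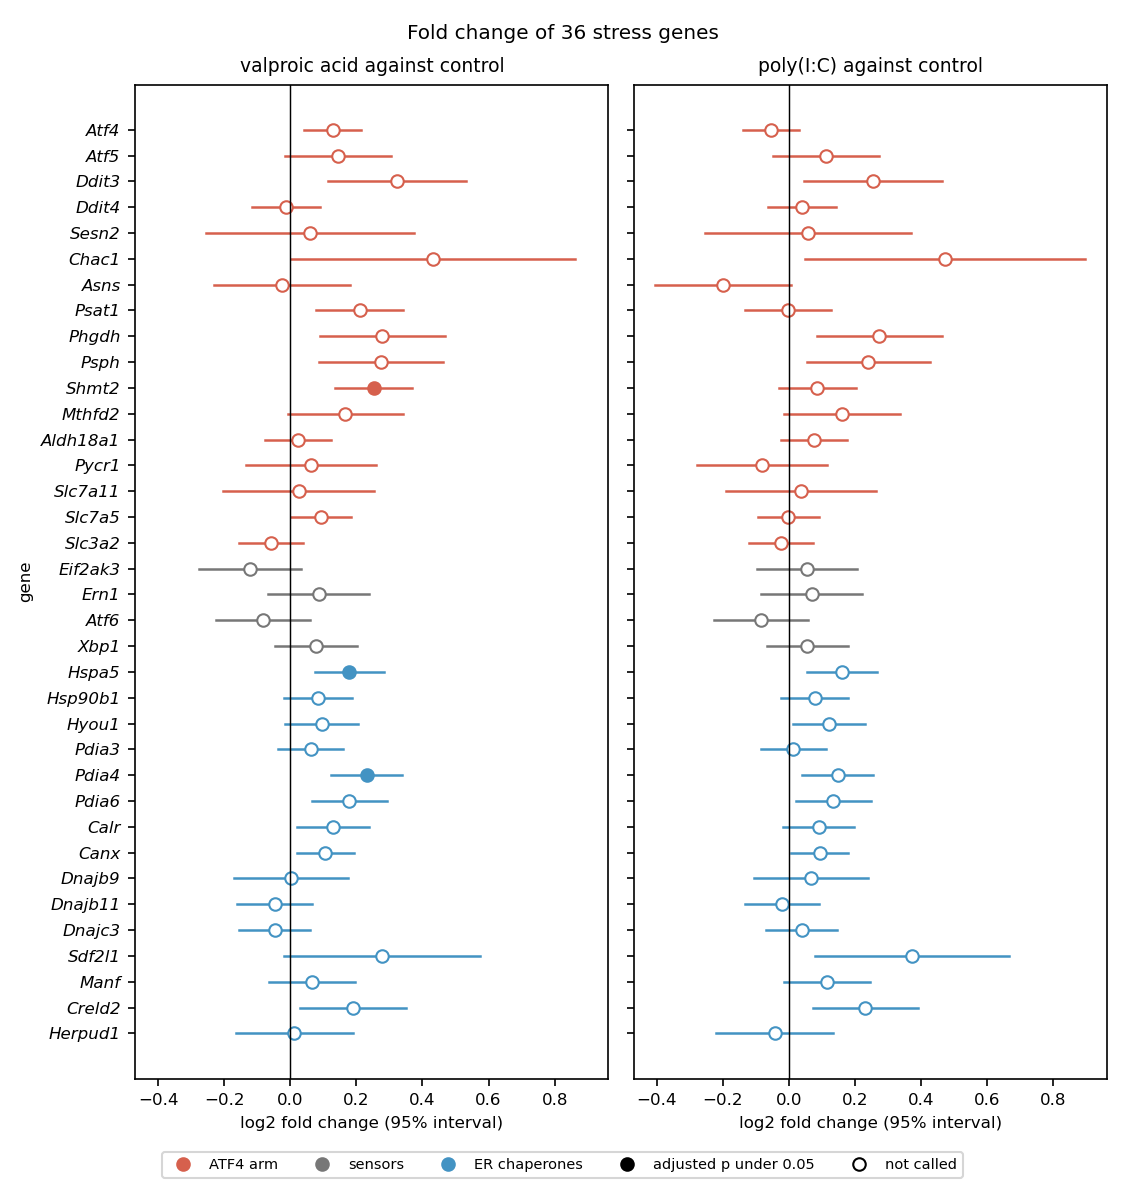
Log2 fold change of the 36 tested genes after valproic acid (left) and after poly(I:C) (right), each against control, with 95% intervals; filled points passed an adjusted p of 0.05. The 3 filled points are Shmt2, Pdia4 and Hspa5 after valproic acid, and most other points lie right of 0. Left of 0 are 7 points after valproic acid, with Eif2ak3, Atf6 and Slc3a2 furthest, and 9 after poly(I:C), with Asns furthest.

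Set side by side, the ATF4 arm and the chaperones had like medians, but the averages over their genes differed in spread between libraries. In valproic acid against control, 1 of 17 ATF4 arm genes and 2 of 15 chaperones were called, against 6.35% of all genes, with median log2 fold changes of 0.13 and 0.10. In poly(I:C) against control, 0 of 17 and 0 of 15 were called, against 0.536% of all genes, with medians of 0.06 and 0.09. Averaged over its 17 genes as log2(CPM + 1) minus the control mean, the ATF4 arm was at 0.127, 0.126 and 0.129 in the valproic acid libraries, 0.0768, 0.0743 and 0.0763 in the poly(I:C) libraries and 0.000537, -0.00871 and 0.00817 in the controls, and the 3 groups did not overlap. The same average over the 15 chaperones was 0.0624, 0.172 and 0.0587 in the valproic acid libraries, 0.174, 0.0128 and 0.121 in the poly(I:C) libraries and -0.000334, 0.0158 and -0.0154 in the controls. Here valproic acid replicate 2 and poly(I:C) replicates 1 and 3 were high, and poly(I:C) replicate 2 lay within the controls. For single genes, the SD between replicates as a percentage of the mean had a higher median in the ATF4 arm. It was 6.77% against 4.78% in the chaperones after valproic acid, 6.16% against 5.61% after poly(I:C) and 4.34% against 2.66% in controls. The chaperone average minus the ATF4 average was -0.0298 ± 0.0656 in valproic acid libraries, 0.0265 ± 0.0806 in poly(I:C) libraries and 0.00 ± 0.024 in controls (SD, n = 3 each), and each group's values overlapped the others'. Since the genes were chosen with earlier results of these data known, these averages carry no test.

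**Figure D4:**
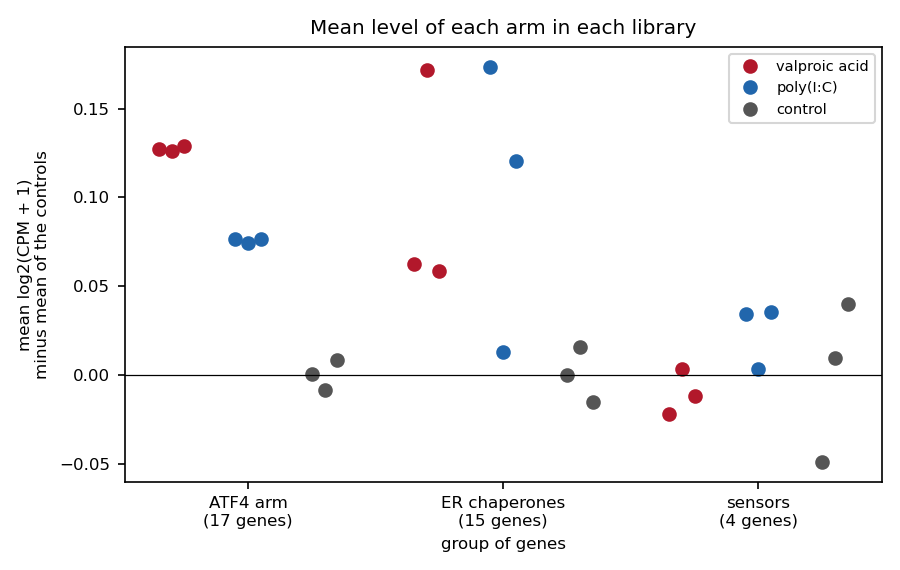
Mean log2(CPM + 1) of the ATF4 arm (17 genes), the ER chaperones (15 genes) and the sensors (4 genes) in each library, minus the mean of the 3 controls (valproic acid left, poly(I:C) in the middle, control right within each set). The ATF4 arm lies at 0.126 to 0.129 after valproic acid and 0.0743 to 0.0768 after poly(I:C), whereas the chaperones spread over 0.0587 to 0.172 after valproic acid and 0.0128 to 0.174 after poly(I:C).

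Markers of other cell types were summed beside the chaperones. The shares of all genes called were 3.57% higher and 2.78% lower after valproic acid against control, and 1.42% higher against poly(I:C). The 7 markers of mural cells and meningeal fibroblasts summed to 752 to 947 CPM in valproic acid libraries, 681 to 712 CPM in poly(I:C) libraries and 771 to 819 CPM in controls. After valproic acid the 7 had a median log2 fold change of 0.18 against control, 3 were higher at an unadjusted p under 0.05 and Rgs5 fell, a call lost without control replicate 1 and with either sex-linked covariate. Their median was -0.17 after poly(I:C), with 0 called, and 4 of 7 were called higher after valproic acid than after poly(I:C). The 5 choroid plexus markers summed to 563 to 631 CPM in valproic acid libraries, 552 to 626 CPM in poly(I:C) libraries and 522 to 671 CPM in controls, with 0 of 5 called in any comparison. The 8 erythroid markers summed to 2115 to 2429 CPM in valproic acid libraries, 1277 to 1865 CPM in poly(I:C) libraries and 1640 to 1901 CPM in controls. Against control, 4 of 8 rose after valproic acid. Against poly(I:C), 8 of 8 were called higher after valproic acid, with a median log2 fold change of 1.10. Of the rest, the 6 microglia markers summed to 60.6 to 70.0 CPM in valproic acid libraries, 68.2 to 71.4 CPM in poly(I:C) libraries and 74.9 to 81.9 CPM in controls, and 2 of 6 fell after valproic acid. The 5 endothelial markers, of which 1 rose after valproic acid, summed to 263 to 287 CPM in valproic acid libraries, 242.5 to 262 CPM in poly(I:C) libraries and 253 to 263 CPM in controls. The 6 neuronal markers, of which 2 fell after valproic acid, summed to 5358 to 5707 CPM in valproic acid libraries, 5675 to 5917 CPM in poly(I:C) libraries and 5729 to 5821 CPM in controls. None of these lists had a marker at 0 in all libraries. Their part in the results was not tested.

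The 7 chaperone genes with an ER stress element had a median log2 fold change of 0.13 after valproic acid and 0.09 after poly(I:C). The 6 chaperone genes without one in the window had medians of 0.04 and 0.04. The ranges overlapped: from -0.05 to 0.19 with the element and from -0.05 to 0.28 without it after valproic acid. Pdia4, which was called, had no match, and Dnajc3, which was below control, had one.

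Other genes of the same pathways came from lists chosen alongside the 37 genes, with earlier results of these data known, so their counts carry no test. Of 20 aminoacyl-tRNA synthetase genes, many of which ATF4 induces, 4 rose and 0 fell after valproic acid, against 3.57% and 2.78% of all genes. Their median log2 fold change was 0.10. Wars, for tryptophan, averaged 119.9 ± 2.90 CPM in valproic acid libraries and 96.2 ± 8.82 CPM (SD, n = 3 each) in controls, was 1.25-fold higher (adjusted p = 0.00546, edgeR) and stayed called without any 1 of the 6 libraries. Iars, for isoleucine, was 1.14-fold higher (adjusted p = 0.0130, edgeR), a call lost without control replicate 3. Mars, for methionine, was 1.16-fold higher (adjusted p = 0.0278, edgeR), a call that held without control replicate 2 alone. After poly(I:C), 1 of the 20 rose, against 0.262% of all genes. It was again Wars, at 1.22-fold (adjusted p = 0.0428, edgeR), a call that held only without control replicate 2.

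Of 31 tested other genes of the integrated stress response, 2 rose and 1 fell after valproic acid and 0 were called after poly(I:C). Among all genes, 3.57% were called higher and 2.78% lower after valproic acid, and 0.536% were called after poly(I:C). Slc1a5, a glutamine carrier, was 1.44-fold higher after valproic acid than in control (adjusted p = 0.0126, edgeR; lost without control replicate 1) and also higher than after poly(I:C) (adjusted p = 0.0324, edgeR; lost without poly(I:C) replicate 1 or 2 or valproic acid replicate 1 or 3). Slc38a2, an amino acid carrier, was 1.12-fold higher (adjusted p = 0.0259, edgeR; held without control replicate 3 or valproic acid replicate 2), while the neutral amino acid carrier Slc1a4 fell by 0.26 on the log2 scale (adjusted p = 0.0180, edgeR; lost without control replicate 1 or 2 or valproic acid replicate 2). Slc7a1, an arginine carrier, was lower after valproic acid than after poly(I:C) by a log2 fold change of -0.16 (adjusted p = 0.0442, edgeR), which was lost without any 1 of the 6 libraries. Of 43 genes of ER import, oxidation and degradation, 1 rose after valproic acid (P4hb, another disulfide isomerase gene, 1.10-fold, adjusted p = 0.0323, edgeR; held without control replicate 2 or valproic acid replicate 1), 0 fell, and 0 were called after poly(I:C); the list's median log2 fold change after valproic acid was -0.03.

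Genes of hypoxia, which also induces Ddit4, and of glycolysis were measured beside these. Of 14 tested, 8 rose after valproic acid, against 3.57% of all genes, and 0 were called after poly(I:C), against 0.536%. Ldha, Pgk1 and Eno1 had the smallest adjusted p after valproic acid and stayed called there without any 1 library. The summed CPM of the list was 2852 to 3060 in valproic acid libraries, 2468 to 2535 in poly(I:C) libraries and 2309 to 2371 in controls. Of 9 tested immediate early genes, which respond to handling of tissue, Jun and Ier2 rose after valproic acid, and the list summed to 171 to 187 CPM in valproic acid libraries, 155 to 169 CPM in poly(I:C) libraries and 149.9 to 153 CPM in controls. Without 1 library, Jun stayed called each time and Ier2 held only without control replicate 3, and neither was called with either sex-linked covariate. The part of either in the 37 genes was not tested.

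Within a group, Xist differed widely only between poly(I:C) replicate 3 and poly(I:C) replicates 1 and 2. A fit with Xist as a covariate rests on that difference. It cannot separate valproic acid from the sex-linked signals, so a call lost in it does not decide between them. With Xist as a covariate, 0 of the 36 genes were called after valproic acid (adjusted p = 0.174 for Shmt2, 0.379 for Pdia4 and 0.568 for Hspa5, edgeR). Their log2 fold changes in that fit were 0.40 for Shmt2, 0.27 for Pdia4 and 0.18 for Hspa5, against 0.25, 0.23 and 0.18 without the covariate. With Y-linked expression as a covariate only Shmt2 was called, and the log2 fold changes were 0.31 for Shmt2, 0.26 for Pdia4 and 0.18 for Hspa5. Between the exposures, Atf4 did not pass with either covariate (adjusted p = 0.362 with Xist and 0.222 with Y-linked expression, edgeR), at log2 fold changes of 0.17 with Xist and 0.17 with Y-linked expression, against 0.18 without a covariate. Each synthetase, integrated stress response, ER import and immediate early gene named above was also not called with Xist as a covariate. Ldha, Pgk1, Eno1 and Neurog2 stayed called after valproic acid in that fit (adjusted p = 0.0283 to 0.0490, edgeR), while Eomes and Btg2 did not. In the fit with Y-linked expression, Wars and Mars kept the calls given above. Iars, Slc1a5, Slc1a4, Slc38a2, Slc7a1 and P4hb lost theirs (adjusted p = 0.0628 to 0.268, edgeR). Without control replicate 3, which had neither sex-linked signal, the number called after valproic acid was 0, and without it and poly(I:C) replicate 3 together it was 0.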

How the data were processed

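RNA-seq libraries of whole mouse brain at embryonic day 14 (9 libraries, 3 per group) were analysed from the deposited table of raw counts per Ensembl gene. Reads had been aligned with HISAT2 to GRCm39 (mm39), per the submitters' processing notes; for the read counter, strand setting and annotation: not given in the sources used here. The libraries held 15399974 to 19883131 counts. Symbols and exon lengths came from GENCODE M21 (GRCm38), with no coordinates moved between builds, and promoters from RefSeq GRCm38.p6.

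Counts were fitted in R 4.3.3 with edgeR 4.0.16 (quasi-likelihood F-test, TMM scaling, all 9 libraries in 1 fit, genes kept by filterByExpr at a minimum count of 10 and a total of 15), adjusted by Benjamini-Hochberg over 17171 genes; the model was tested on simulated data. CPM are these counts scaled to library size and TMM factor. Alternatives were DESeq2 1.42.0, other scaling and filters, a replicate block, sex-linked covariates and leaving out each library; leaving out control replicate 3 and poly(I:C) replicate 3 together was chosen after seeing the data. Replicates differed by more than sampling noise.

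The genes and lists were chosen with earlier results of these data known. Values per library are given for called genes, for the gene with the smallest p in each role group without a call, and for Atf4, Hspa5, Ddit3, Xbp1, Asns and Ddit4; of the other lists, up to 3 called genes per comparison are named.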

Additional observations from a re-analysis of the deposited data

How the results depend on the processing

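Of the 36 genes, the 4 calls (Shmt2, Pdia4 and Hspa5 after valproic acid and Atf4 between the exposures) kept their direction under every alternative run. Of the 36, 27 kept the sign of their fold change in all 16 alternatives for valproic acid against control, 30 for poly(I:C) against control and 17 between the 2 exposures. The number of the 36 called after valproic acid (3) was 7 with no filter on low counts, 6 with DESeq2, 1 with Y-linked expression as a covariate, 0 with Xist as a covariate, 0 without control replicate 3 and poly(I:C) replicate 3 together, and 0 to 4 without 1 library. After poly(I:C) it (0) was 2 with no filter (Hspa5 and Phgdh) and 0 without any 1 library. Between the exposures it (1) was 2 with no filter, 2 with DESeq2, 0 with either covariate, 0 without the pair of libraries and 0 to 1 without 1 library.

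Over all genes, 1090 calls after valproic acid became 1661 with no filter, 272 with the Y-linked covariate, 19 with Xist, 485 without the pair of libraries and 467 to 789 without 1 library. The 92 after poly(I:C) became 464 with no filter, 166 with DESeq2, 42 with Xist, 41 without the pair and 38 to 63 without 1 library. The 445 between the exposures became 1057, 111, 39 and 176 with no filter, the Y-linked covariate, Xist and without the pair, and 113 to 294 without 1 library. The cause was not tested. The fit with Xist rests on poly(I:C) replicate 3, as said above, and leaving out a library also leaves fewer samples.

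The median log2 fold change of the ATF4 arm after valproic acid (0.128) was 0.116 with Xist, 0.141 without the pair and 0.103 to 0.141 without 1 library. After poly(I:C) (0.0592) it was 0.0753 without the pair and 0.0317 to 0.0801 without 1 library. Between the exposures (0.0330) it was 0.0511 with the Y-linked covariate, 0.0405 with Xist, 0.0606 without the pair and 0.00669 to 0.0667 without 1 library. That of the chaperones, without 1 library, ranged over 0.0439 to 0.135 after valproic acid, 0.0700 to 0.136 after poly(I:C) and -0.0357 to 0.0246 between the exposures.

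Groups share replicate numbers, but the labels do not say that a number marks a litter or batch. Same-numbered libraries deviated together with correlations of -0.0416 to 0.00963 (valproic acid and control), 0.0285 to 0.131 (poly(I:C) and control) and -0.0188 to 0.00882 (both exposures), and 1, 3 and 2 of 6 libraries correlated best with their own number. With the replicate number as a block, 912, 88 and 344 genes were called in the 3 comparisons, and 2, 0 and 1 of the 36: Hspa5 after valproic acid did not pass (adjusted p = 0.0655, edgeR). Of the other genes named, Slc7a1 between the exposures (adjusted p = 0.0683, edgeR) and Ier2 after valproic acid (adjusted p = 0.0609, edgeR) did not pass with the block either. Depth limits Trib3, which was too low to test, and Chac1.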
